A study of Mus musculus with 16 samples.

Results

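The genes described here are the 4 inhibitor of DNA binding genes of the mouse, Id1, Id2, Id3 and Id4, together with 6 genes of bone morphogenetic protein (BMP) signalling, Bmp4, Bmpr1a, Bmpr2, Smad1, Smad5 and Smad6. They were found by symbol through the Ensembl gene ID, and the list was drawn up with earlier results of these data known. These are 10 of the 52636 gene IDs in the count table, and all 10 were among the 12742 that passed the filter on low counts.

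BMP ligands such as Bmp4 bind pairs of type I and type II receptors at the cell surface, and the receptors phosphorylate SMAD1 and SMAD5, which move to the nucleus with SMAD4. The Id genes are the classical direct targets of these SMADs in embryonic stem cells. ID proteins bind E proteins, a family of basic helix-loop-helix factors, and keep them off DNA; in mouse embryonic stem cells BMP with LIF is known for holding back neural differentiation by way of Id genes.

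RNA was sequenced in 16 libraries of the mouse line CRAFR26, in the cell type labelled RSC, which the submitters made by differentiating embryonic stem cells. The cells carry a c-RAF construct that 4-hydroxytamoxifen (4OHT) switches on, and RAF acts through MEK on the kinase ERK. In every group the cells came from N2B27 medium with 2 µM IWP2, an inhibitor of WNT secretion, 1 µM of the MEK inhibitor PD03 and 1000 U/ml of LIF, and PD03 was replaced for 48 h before the experiment by 250 nM of the FGF receptor inhibitor PD17. The group 0h was taken before 4OHT, 2h and 4h after 2 h and 4 h in 250 nM 4OHT, and rev after 4 h of 4OHT and a further 2 h with a MEK inhibitor whose dose was not stated. No BMP or serum is named among the additions to the medium. Each group held 4 libraries, 2 from clone 4 and 2 from clone 8. The clones are 2 targeted lines, so a difference between them is a difference between these lines, and the labels do not say whether the 2 libraries of a clone came from separate cultures, so p-values measure the spread between these libraries. No group with 6 h of 4OHT alone was analysed here, so in every comparison with rev the inhibitor and the longer culture cannot be told apart.

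Libraries held 4.31 to 10.4 M counts (median 8.03 M), of which 8 very abundant features took 46.7% to 78.9%. The counts outside these features ranged from 1.30 to 5.46 M, lowest in replicate 1 of clone 8 at rev. Levels are given as CPM, counts scaled to a library of 1 M counts with edgeR's TMM factors, and 1 count was worth 0.0701 to 0.303 CPM, so values under about 1 CPM rest on a few counts. The 4 general pluripotency markers Pou5f1, Sox2, Utf1 and Sall4 summed to 624 to 759 CPM in the 16 libraries. The 6 naive markers summed to 497 to 1689 CPM and the 4 rosette, formative or primed markers to 26.9 to 130 CPM, with Fgf5 at 0 counts in 3 libraries. None of 4 fibroblast genes passed the filter, and Dcn was at 0 counts in 15 of 16 libraries. Dusp6 and Spry4, which encode inhibitors of the ERK pathway and are widely used as readouts of ERK, were at means of 2.92 and 2.02 CPM at 0h, 32.0 and 105.5 CPM at 2h, 49.0 and 141.4 CPM at 4h and 1.59 and 1.51 CPM at rev.

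Of the ID genes, Id1, Id3 and Id4 were higher at 2h than at 0h, and the promoter window of each that RefSeq's table gives is shown here because these genes were called in the same direction. Each window runs from 250 bases before the annotated start to 50 bases after it, on the build GRCm38.p6 and on the strand of the gene, 5′ to 3′. Entries were found for 9 of the 10 genes; none was found for Id1, so its promoter is not shown. The capitals mark matches to the motifs searched. The Id3 window is chr4:136143572-136143871 on the plus strand and the Id4 window is chr13:48260866-48261165 on the plus strand. The starts used for the windows are RefSeq's and differ from the GENCODE gene starts given below. The Id3 window lies inside the GENCODE gene, which begins at 136143497. The Id4 window ends before the GENCODE gene, which begins at 48261228.
Id3 promoter: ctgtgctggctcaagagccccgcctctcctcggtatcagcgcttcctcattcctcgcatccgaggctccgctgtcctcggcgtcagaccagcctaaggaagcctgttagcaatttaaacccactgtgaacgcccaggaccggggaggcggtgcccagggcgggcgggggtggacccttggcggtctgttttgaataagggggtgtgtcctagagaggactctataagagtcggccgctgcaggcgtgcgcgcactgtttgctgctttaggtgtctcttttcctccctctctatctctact
Id4 promoter: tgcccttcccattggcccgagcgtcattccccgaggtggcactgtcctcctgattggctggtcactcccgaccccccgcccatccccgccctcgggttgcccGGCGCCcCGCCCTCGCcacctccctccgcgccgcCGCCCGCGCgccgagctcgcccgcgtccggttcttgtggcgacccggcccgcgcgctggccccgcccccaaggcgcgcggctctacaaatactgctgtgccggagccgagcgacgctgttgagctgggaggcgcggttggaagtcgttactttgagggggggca

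Both strands were searched for GGCGCC (bound by BMP SMADs), GTCTAGAC and CAGACA (SMAD), GCGNGGGCG (EGR factors), CCGGAAG (ETS factors), TGANTCA (AP-1), TGACGTCA (CREB), CANNTG (the E-box) and the CArG box of SRF. The Id4 window held GGCGCC with its first base 148 bases before the start, and GCGNGGGCG on the reverse strand with its first bases 141 and 114 bases before the start; these matches do not overlap each other. GGCGCC was in 11.9% and GCGNGGGCG in 5.55% of the 32851 windows of the table. None of these motifs was found in the Id3 window, which says only that the letters are not in these 300 bases. Among the other genes GGCGCC was found in the windows of Id2, Bmpr1a, Bmpr2 and Smad5, GTCTAGAC in that of Smad6, a motif held by 0.213% of windows, and CCGGAAG, held by 8.86%, in that of Bmp4. CANNTG, held by 72.3% of windows, was found in those of Id2, Bmp4, Smad5 and Smad6. For Smad5 the table gives 3 windows, and 2 of them held both GGCGCC and CANNTG. A match is a description of the sequence and not evidence of binding.

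Id1 lies on chromosome 2 at 152736251 to 152737410 (plus strand; ENSMUSG00000042745; coordinates here and below are 1-based on GRCm38 and from GENCODE M21). It was barely detected before 4OHT and was highest after 4 h. At 0h it was at 0.799 and 0.455 CPM in replicates 1 and 2 of clone 4 and at 0.415 and 0.144 CPM in those of clone 8, from 4, 3, 4 and 1 counts. At 2h the values in the same order were 3.11, 2.07, 2.13 and 2.31 CPM, and all 4 libraries lay above all 4 at 0h. At 4h Id1 was at 23.2 and 21.6 CPM in clone 4 but at 3.12 and 3.68 CPM in clone 8, so clone 4 alone was far above its 2h level. At rev the values were 0.678, 0.776, 0.303 and 0.384 CPM, which overlap those at 0h. In edgeR's quasi-likelihood test with clone as a covariate and p adjusted over all genes tested, Id1 rose by 2.58 on the log2 scale at 2h (SE 0.552, adjusted p = 0.00375) and by 4.54 at 4h (SE 0.472, adjusted p = 3.88e-06). From 4h to rev it fell by 4.39 (SE 0.448, adjusted p = 4.42e-06). Because the 0h level rests on 12 counts in all, its fold is loose: the ratio of summed, scaled counts at 4h to 0h was 26.4 with a 95% interval of 14.9 to 51.7 that covers counting error only.

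Id3, on chromosome 4 at 136143497 to 136145755 (plus strand; ENSMUSG00000007872), was highest at 2h. Its level at 0h was 0.599 and 1.06 CPM in clone 4 and 1.66 and 2.01 CPM in clone 8. At 2h it stood at 15.6, 15.9, 23.0 and 18.5 CPM in the same order, and at 4h at 11.3, 12.2, 9.05 and 7.50 CPM. Every library at 4h lay below every library at 2h and above every library at 0h. At rev Id3 was at 1.69, 0.776, 2.73 and 3.07 CPM, with clone 8 above clone 4. The rise at 2h was 3.71 on the log2 scale (SE 0.281, adjusted p = 7.10e-08, edgeR), or 13.1-fold. At 4h Id3 was 2.83 above 0h (SE 0.305, adjusted p = 5.92e-06), and from 2h to 4h it fell by 0.88 (SE 0.21, adjusted p = 0.0119). From 4h to rev it fell by 2.36 (SE 0.287, adjusted p = 3.81e-05).

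Id1 and Id3 thus differed in which time point was higher. The log2 ratio of Id1 to Id3 within a library was -2.80 ± 0.435 (SD, n = 4) at 2h and -0.15 ± 1.25 (SD, n = 4) at 4h. The difference of 2.64 was in the same direction in all libraries, with 4h values from -1.47 to 1.02 and 2h values from -3.29 to -2.23, and had p = 0.0286 in a two-sided exact permutation test, the smallest that 4 against 4 libraries allow. This ratio was chosen after the values had been seen.

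Id4, on chromosome 13 at 48261228 to 48266026 (plus strand; ENSMUSG00000021379), moved less. It was at 4.60 and 2.58 CPM in clone 4 and 6.85 and 5.60 CPM in clone 8 at 0h, and at 6.22, 7.74, 12.1 and 10.1 CPM at 2h. At 4h the values were 2.80 and 2.54 CPM in clone 4 and 6.13 and 8.88 CPM in clone 8, and at rev 6.21, 5.24, 6.36 and 3.84 CPM. Within each clone both libraries at 2h were above both at 0h, though the 2 groups overlap when clones are pooled. Id4 rose by 0.88 on the log2 scale from 0h to 2h (SE 0.25, adjusted p = 0.0209, edgeR) and fell by 0.83 from 2h to 4h (SE 0.25, adjusted p = 0.0357). The first call was lost without replicate 2 of clone 4 or of clone 8 at 0h or replicate 1 of clone 8 at 2h, with log2 changes of 0.74 to 0.99 over all libraries left out in turn. The second was lost without any 1 of 6 libraries, replicate 2 of clone 4 or either of clone 8 at 2h, or either of clone 4 or replicate 1 of clone 8 at 4h, with changes of -1.10 to -0.69. Of the exon bases of Id4, 4.44% are shared with genes on the opposite strand, A330033J07Rik and Gm49291. Bmp4 and Bmpr1a likewise share 3.96% and 4.57% of their exon bases with a gene on the opposite strand. The strand setting of the authors' counting is not given in the sources used here.

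Id2, on chromosome 12 at 25093799 to 25097140 (minus strand; ENSMUSG00000020644), was the ID gene that differed from 0h at rev and at no earlier time. Its level was 1.40, 3.03, 1.14 and 1.01 CPM at 0h, 1.82, 3.04, 1.98 and 1.82 CPM at 2h and 3.87, 2.79, 1.81 and 1.38 CPM at 4h. At rev it was at 4.63, 3.30, 3.63 and 2.69 CPM, so that 3 of the 4 libraries were above all at 0h. The log2 change from 0h to rev was 1.07 (SE 0.29, adjusted p = 0.0243, edgeR). The change from 0h was 0.43 at 2h (adjusted p = 0.341) and 0.58 at 4h (adjusted p = 0.231), neither called; whether the change at rev differs from these 2 is given by the comparisons of rev with 2h (0.64, adjusted p = 0.249) and with 4h (0.49, adjusted p = 0.277), which were not called either. The call at rev was lost without replicate 1 of clone 4 or either library of clone 8 at 0h, or without replicate 1 of clone 4 at rev, and the change ranged from 0.93 to 1.42 over the libraries left out. It was also lost when libraries were scaled by their totals, as set out in the closing section.

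**Figure D1:**
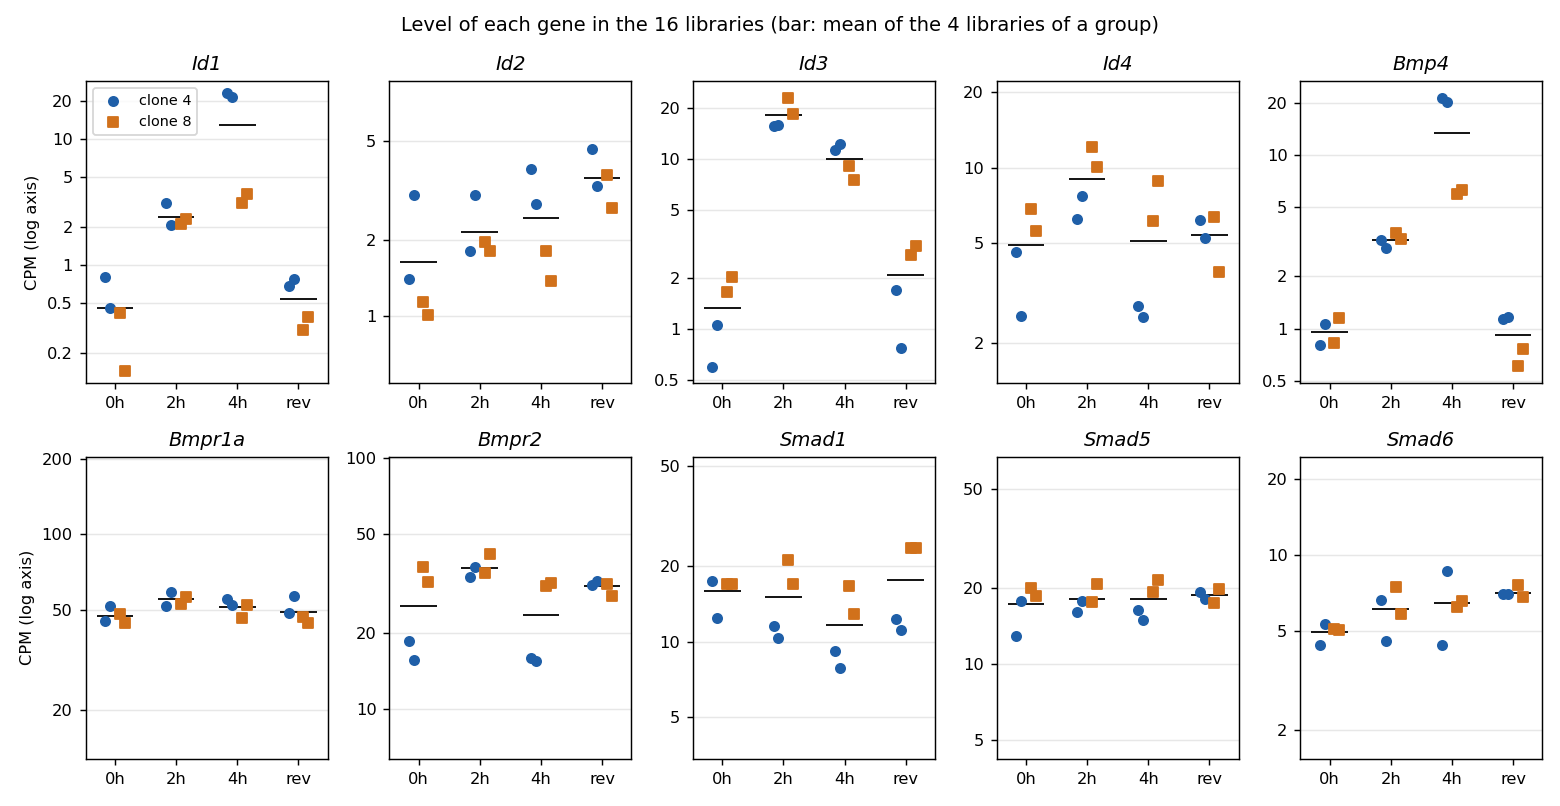
CPM of each of the 10 genes on log axes against group (0h, 2h, 4h, rev), with circles for the 2 clone 4 libraries, squares for the 2 clone 8 libraries and a bar for the mean of 4. The axes differ in span, and those of Id1 and Bmp4 cover a wider range of folds than those of Bmpr1a and Smad5. Id1 and Bmp4 at 4h separate into clone 4 above 20 CPM and clone 8 below 7 CPM, Id3 is highest at 2h, and Bmpr1a and Smad5 stay within narrow bands.

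Bmp4, the ligand, lies on chromosome 14 at 46383520 to 46390669 (minus strand; ENSMUSG00000021835). Its values were those of a gene close to the limit of detection at 0h and rev. It was at 0.799 and 1.06 CPM in clone 4 and 0.830 and 1.15 CPM in clone 8 at 0h, from 4 to 8 counts a library. At 2h it was at 3.24, 2.90, 3.57 and 3.30 CPM, with both libraries of clone 8 slightly above both of clone 4. At 4h clone 4 was at 21.3 and 20.3 CPM and clone 8 at 5.93 and 6.28 CPM, all above every library at 2h. At rev the values were 1.13, 1.16, 0.606 and 0.768 CPM, overlapping those at 0h. Bmp4 rose by 1.81 on the log2 scale at 2h (SE 0.388, adjusted p = 0.0038, edgeR) and by 3.60 at 4h (SE 0.348, adjusted p = 1.43e-06), and it rose from 2h to 4h by 1.79 (SE 0.27, adjusted p = 0.000557). From 4h to rev it fell by 3.74 (SE 0.347, adjusted p = 1.47e-06). The ratio of summed, scaled counts at 4h to 0h was 12.7 with a counting interval of 8.59 to 19.6.

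The 2 receptor genes differed. Bmpr1a, which encodes a type I receptor (chromosome 14, 34410734 to 34503341, minus strand; ENSMUSG00000021796), ranged only from 44.1 to 58.6 CPM over the 16 libraries. It was called in none of the 6 comparisons, and its largest change, at 2h, was 0.22 on the log2 scale with a 95% interval of 0.04 to 0.39 (adjusted p = 0.0858, edgeR). Bmpr2, which encodes the type II receptor (chromosome 1, 59763400 to 59879014, plus strand; ENSMUSG00000067336), was at 18.6 and 15.6 CPM in clone 4 and 36.9 and 32.2 CPM in clone 8 at 0h. At 2h it was at 33.5, 36.8, 34.8 and 41.3 CPM, at 4h at 16, 15.5, 31.0 and 31.9 CPM, and at rev at 31.3, 32.3, 31.5 and 28.3 CPM. In clone 4 it was therefore about as high at 2h and rev as clone 8 always was, and lower at 0h and 4h.

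Over both clones Bmpr2 rose at 2h by 0.53 on the log2 scale (SE 0.179, adjusted p = 0.0474, edgeR) and fell from 2h to 4h by 0.66 (SE 0.181, adjusted p = 0.0241). The rise at 2h was lost without any 1 of 7 libraries, which were replicates 1 and 2 of clone 4 and replicate 2 of clone 8 at each of 0h and 2h and replicate 2 of clone 4 at 4h, with changes of 0.39 to 0.67. The fall was lost without any 1 of the 4 libraries of clone 4 at 2h and 4h, with changes of -0.76 to -0.55. The alternation of Bmpr2 was that of clone 4, since its means in clone 8 were 34.6, 38.0, 31.4 and 29.9 CPM at 0h, 2h, 4h and rev. An alternation of groups also appeared in both clones across the 500 most variable genes, where the third principal component, with 8.57% of the variance, placed all libraries of 0h and 4h on one side and all of 2h and rev on the other. Its part in the values of Bmpr2 and Id4 was not tested.

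Of the intracellular members, Smad1 was called in 1 comparison and Smad5 and Smad6 in none. Smad1, a signal transducer (chromosome 8, 79338395 to 79399518, minus strand; ENSMUSG00000031681), was at 17.4 and 12.4 CPM in clone 4 and 16.9 and 17.0 CPM in clone 8 at 0h, and at 11.5, 10.4, 21.2 and 17.0 CPM at 2h. It was lowest at 4h, with 9.20, 7.87, 16.6 and 12.9 CPM, and stood at 12.3, 11.2, 23.6 and 23.5 CPM at rev. Smad1 rose from 4h to rev by 0.55 on the log2 scale (SE 0.161, adjusted p = 0.0368, edgeR); clone 4 alone did not give the call (log2 change 0.43, adjusted p = 0.112), and it was lost without any 1 of 6 libraries, replicate 1 or 2 of clone 4 or replicate 2 of clone 8 at 4h, or replicate 1 of clone 4 or either library of clone 8 at rev, with changes of 0.47 to 0.65. From 0h to 4h Smad1 fell by 0.75 in clone 4 (SE 0.206, adjusted p = 0.00732, edgeR), with -0.18 in clone 8 (adjusted p = 0.594), and the difference between the clones was 0.57 (adjusted p = 0.256). Over both clones this change was -0.45 (adjusted p = 0.0737), not called, although it was called without replicate 1 of clone 8 at 0h or at 4h. Smad5, which acts with Smad1 (chromosome 13, 56703010 to 56742377, plus strand; ENSMUSG00000021540), ranged from 13.0 to 21.6 CPM and was called in no comparison, with log2 changes from 0.00 to 0.12. Smad6, an inhibitory SMAD and itself a known BMP target (chromosome 9, 63953076 to 64022059, minus strand; ENSMUSG00000036867), ranged from 4.40 to 8.64 CPM and was likewise not called; its largest change, from 0h to rev, was 0.51 with a 95% interval of 0.11 to 0.91 (adjusted p = 0.0949).

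Per kilobase of exon, the scale on which levels of different genes can be compared, the order changed with the group. At 0h Bmpr1a led with 7.44 ± 0.536 CPM per kb (SD, n = 4), and Id1 (0.391 ± 0.232) and Bmp4 (0.427 ± 0.0766) were lowest and did not differ beyond their spread. At 2h Id3 was first with 10.2 ± 1.92 CPM per kb, within the spread of Bmpr1a at 8.64 ± 0.498. At 4h the order differed between the clones. In clone 4 Id1 was first with 19.3 ± 0.983 CPM per kb (SD, n = 2), above Bmp4 (9.26 ± 0.319), Bmpr1a (8.47 ± 0.321) and Id3 (6.57 ± 0.339). In clone 8 Bmpr1a was first with 7.73 ± 0.660 CPM per kb (SD, n = 2), above Id3 (4.62 ± 0.609), Id1 (2.93 ± 0.341) and Bmp4 (2.72 ± 0.109), and the values of Id1 and Bmp4 overlap there. At rev Bmpr1a led again with 7.74 ± 0.855 CPM per kb, and Bmp4 (0.408 ± 0.122) and Id1 (0.461 ± 0.196) were again at the bottom.

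Counted together, 5 of the 10 genes were higher and 0 lower at 2h than at 0h, against 9.49% of all genes tested called higher and 7.48% called lower. At 4h 3 were higher (Id1, Id3 and Bmp4) and 0 lower, against 7.35% and 5.56%. From 2h to 4h 2 rose (Id1 and Bmp4) and 3 fell (Id3, Id4 and Bmpr2), against 5.78% and 6.36%. Between 4h and rev 1 rose (Smad1) and 3 fell (Id1, Id3 and Bmp4), against 4.5% and 5.1%. Between 0h and rev 1 was higher (Id2) and 0 lower, against 5.51% and 4.94%. Compared with 2h, rev had 0 higher and 3 lower (Id1, Id3 and Bmp4), against 0.769% and 1.01%. The counts of 0 lower at 2h and at rev against 0h were also 0 at an unadjusted p under 0.05; 1 gene passed that looser limit for the count of 0 lower at 4h (Smad1) and 1 for the count of 0 higher at rev against 2h (Id2). The DESeq2 Wald test also gave 0 in each of these 4 cases. The comparisons share groups and so are not independent of each other. The median log2 change of the 10 genes was 0.48 at 2h and 0.22 at 4h against 0h, beside 0.00 and -0.01 over all genes tested.

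**Figure D2:**
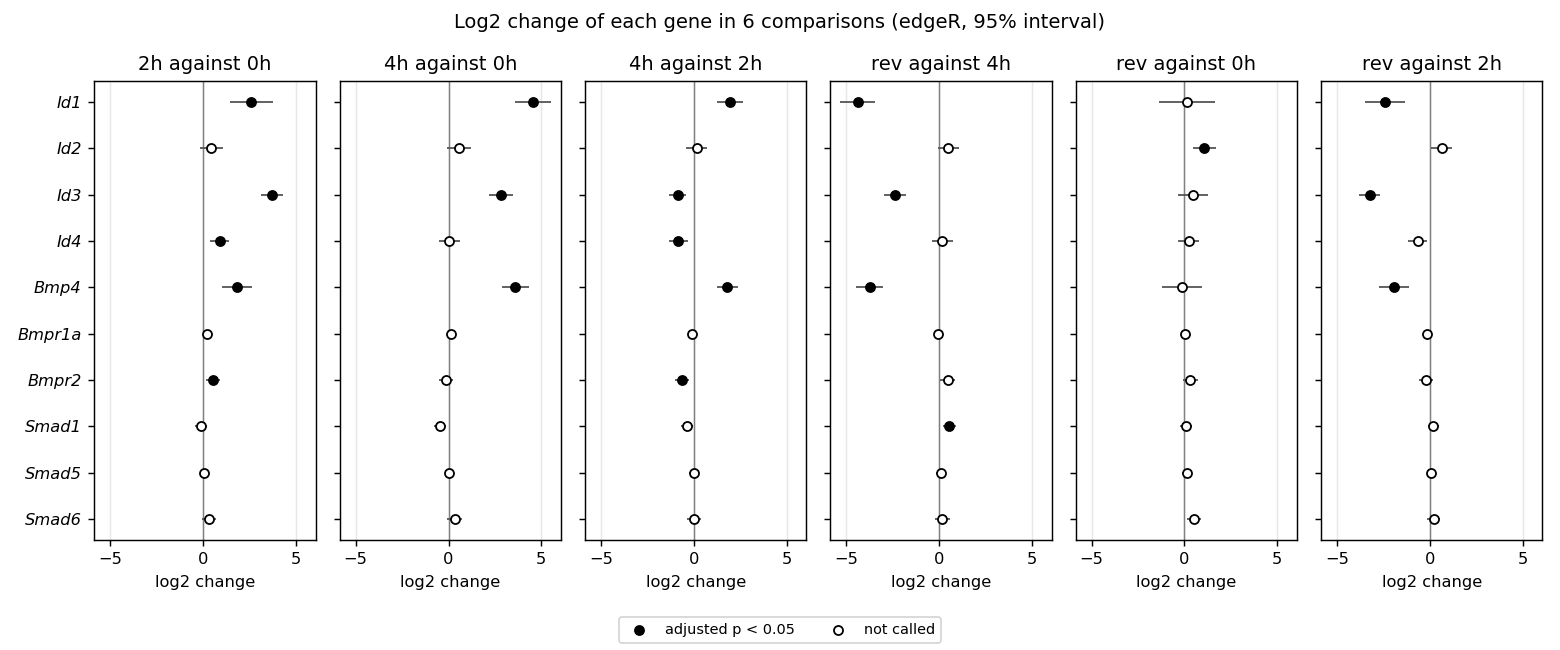
Log2 change of each gene with its 95% interval from edgeR in the 6 comparisons between groups, filled where the adjusted p was under 0.05. Id1, Id3 and Bmp4 lie far to the right of 0 at 2h and 4h and far to the left for rev against 4h, while the receptors and SMADs lie within 1 log2 unit of 0 in every panel.

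After MEK inhibition Id1, Id3 and Bmp4 were at 0h levels within their error. The log2 difference between rev and 0h was 0.16 for Id1 with a 95% interval of -1.35 to 1.67, 0.47 for Id3 (-0.36 to 1.29) and -0.13 for Bmp4 (-1.20 to 0.94), with edgeR adjusted p of 0.921, 0.492 and 0.905. These intervals are wide because few counts were seen in both groups, so a difference of 2-fold in either direction is inside the interval of Id1, a 2-fold higher level inside that of Id3 and a 2-fold lower level inside that of Bmp4. The fall from 2h levels was 2.43 for Id1, 3.24 for Id3 and 1.94 for Bmp4 on the log2 scale (adjusted p = 0.0182, 2.36e-07 and 0.0116); the calls of Id1 and Bmp4 were lost without replicate 1 or replicate 2 of clone 4 at rev.

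These 3 genes rose from 0h to 4h in both clones. For Id1 and Bmp4 the clone means lay furthest apart at 4h, but not for Id3, which averaged 0.830 CPM in clone 4 and 1.84 CPM in clone 8 at 0h, 11.8 and 8.28 CPM at 4h and 1.24 and 2.90 CPM at rev. Within clone 4 Id1 rose by 5.18 on the log2 scale from 0h to 4h (SE 0.335) and within clone 8 by 3.41 (SE 0.48), both called by edgeR (adjusted p = 5.00e-14 and 1.40e-05). Bmp4 rose by 4.44 (SE 0.292) in clone 4 and 2.64 (SE 0.313) in clone 8, and Id3 by 3.74 (SE 0.352) and 2.20 (SE 0.275). Testing the difference of these changes itself, clone 8 minus clone 4, gave -1.81 for Bmp4 (SE 0.545, adjusted p = 0.0428), the 1 gene of the 10 called, beside 5.72% of all genes. For Id1 the difference was -1.77 with a 95% interval of -3.58 to 0.03 (adjusted p = 0.324) and for Id3 -1.53 with an interval of -2.62 to -0.45 (adjusted p = 0.0909). The Bmp4 call was fragile: it was lost without any 1 of 10 libraries (adjusted p up to 0.26), named in the closing section, under DESeq2 (adjusted p = 0.141) and when libraries were scaled by their totals (adjusted p = 0.432).

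From 2h to 4h the clones gave these values. In clone 4 Id1 rose by a further 3.10 on the log2 scale (SE 0.237, adjusted p = 5.38e-12, edgeR), while in clone 8 the change was 0.59 (SE 0.282, adjusted p = 0.225). Bmp4 rose by 2.76 in clone 4 (SE 0.218) and by 0.82 in clone 8 (SE 0.219, adjusted p = 0.0159). Id3 fell by 1.30 in clone 8 (SE 0.171, adjusted p = 6.05e-06), with -0.43 in clone 4 (SE 0.19, adjusted p = 0.0869). Whether these 2h to 4h changes differ between the clones was not tested. The level itself at 4h was lower in clone 8 by a log2 difference of -2.74 for Id1 (SE 0.223, adjusted p = 1.64e-11) and -1.78 for Bmp4 (SE 0.191, adjusted p = 7.12e-09).

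The readouts of ERK separated the same libraries. Dusp6 at 4h was at 80.0 and 73.9 CPM in clone 4 and 22.8 and 19.3 CPM in clone 8, against 33.5, 35.4, 31.1 and 28.0 CPM at 2h. Spry4 at 4h was at 218.1 and 238.2 CPM in clone 4 and 55.0 and 54.4 CPM in clone 8. Summed markers of other cell types separated them too. At 4h the 3 neural markers summed to 19.1 to 22.8 CPM in clone 4 and 5.93 to 7.20 CPM in clone 8, with Neurog2 at 0 counts in 15 of the 16 libraries. That sum was mostly Pax6, at 17.3 to 21.7 CPM in clone 4 and 3.32 to 3.98 CPM in clone 8, whereas Sox1 lay the other way, at 1.07 to 1.78 CPM and 2.61 to 3.22 CPM. The 4 trophoblast markers summed to 22.1 to 23.9 CPM in clone 4 and 6.74 to 9.35 CPM in clone 8, with Cdx2 at 0 counts in 5 libraries. Most of it was Gata3, also among the further BMP genes below, at 13.7 to 16.7 CPM and 1.53 to 4.12 CPM, and Eomes, at 5.73 to 6.60 CPM and 4.83 to 5.05 CPM. The 4 fibroblast genes summed to 3.30 to 3.47 CPM in clone 4 and 0.613 to 0.804 CPM in clone 8, and the 6 naive markers to 497 to 669 CPM and 1337 to 1386 CPM. The naive marker Zfp42 did not follow this sum, at 95.9 to 110.7 CPM in clone 4 and 83.9 to 99.4 CPM in clone 8. At 0h Zfp42 was higher in clone 4, at 107.1 to 121.6 CPM against 88.7 to 89.1 CPM in clone 8. Already at 0h the clones were apart in the naive markers (990 to 1057 CPM in clone 4 and 1448 to 1461 CPM in clone 8) and the trophoblast markers (10.8 CPM in both clone 4 libraries and 5.89 to 6.64 CPM in clone 8), while the neural sums overlapped. The trophoblast gap at 0h was mostly Gata3, at 7.39 to 8.49 CPM in clone 4 and 3.31 to 4.25 CPM in clone 8. Eomes overlapped there, and Cdx2 and Elf5 reached at most 0.400 and 0.606 CPM. Of the neural markers at 0h Pax6 overlapped, but Sox1 was apart, at 1.67 to 3.40 CPM in clone 4 and 4.46 to 4.74 CPM in clone 8. The 4 rosette, formative or primed markers were apart too, at 73.7 to 99.3 CPM in clone 4 and 38.1 to 38.9 CPM in clone 8 at 0h. At 4h they summed to 93.2 to 129.7 CPM in clone 4 and 38.4 to 43.0 CPM in clone 8. The part of these in the levels of Id1 and Bmp4 was not tested; in bulk RNA, more cells with the transcript and more transcript per cell cannot be told apart.

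At 2h and on reversal other genes differed between clones. From 0h to 2h Bmpr2 rose by 1.05 on the log2 scale in clone 4 (SE 0.14, adjusted p = 1.06e-06, edgeR) with 0.13 in clone 8 (adjusted p = 0.464), a difference of -0.92 (SE 0.18, adjusted p = 0.00112); it was the 1 gene of the 10 called, beside 7.94% of all genes. On reversal from 4h 3 of the 10 differed, beside 13.2% of all genes. Id3 fell by 3.26 in clone 4 and 1.50 in clone 8, a difference of 1.76 (SE 0.443, adjusted p = 0.00643). Id4 rose by 1.07 in clone 4 (adjusted p = 0.0114) with -0.65 in clone 8 (adjusted p = 0.202), a difference of -1.72 (SE 0.425, adjusted p = 0.00577), and Bmpr2 rose by 1.01 in clone 4 with -0.09 in clone 8, a difference of -1.10 (SE 0.193, adjusted p = 0.000162). Without replicate 2 of clone 8 at rev the differences of Id3 and Id4 were no longer called, and that of Id3 was also lost without replicate 2 of clone 4 at rev. Scaling by library totals ended the Id3 call (difference 1.13, adjusted p = 0.138) and the Bmpr2 call at 2h (-0.32, adjusted p = 0.566), and made the difference of Bmpr2 on reversal -1.76 (adjusted p = 0.000686). Replicate 1 of clone 8 at rev is the library with the fewest counts outside the abundant features, and leaving it out ended none of these 3 calls.

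**Figure D3:**
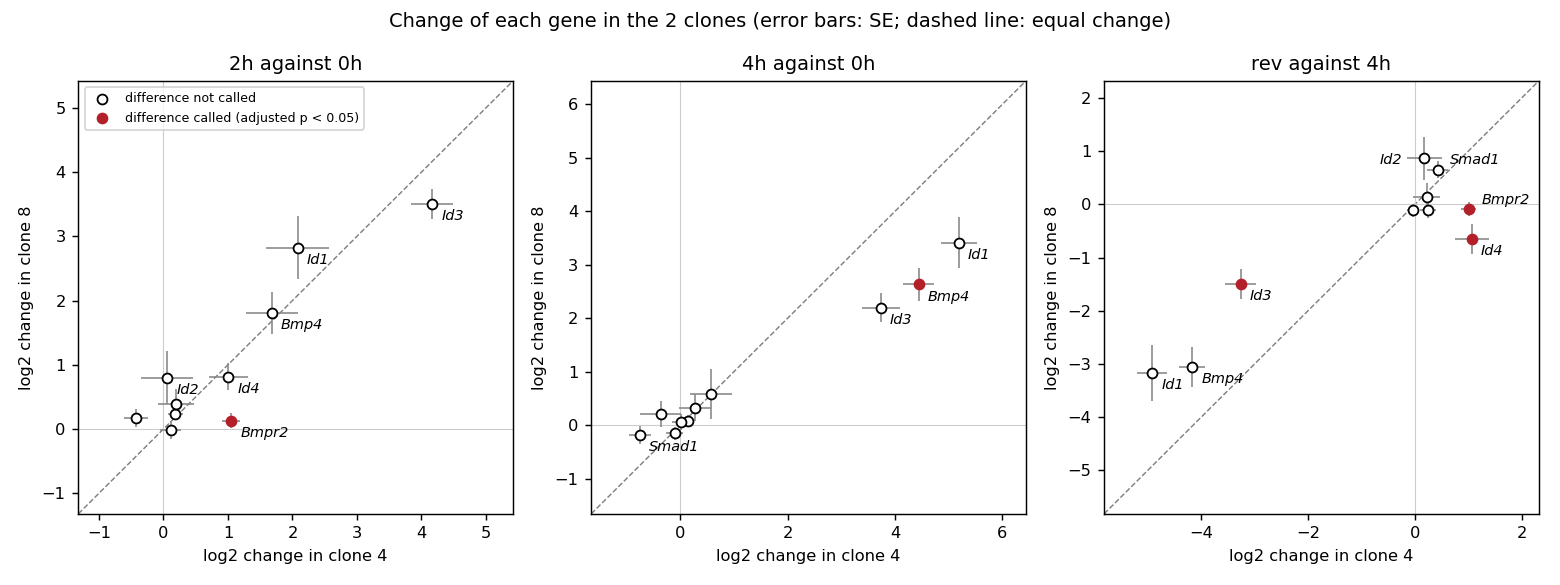
Log2 change in clone 8 (vertical axis) against that in clone 4 (horizontal axis) for the 10 genes in 3 comparisons, with SE bars and a dashed line of equal change; red points are genes whose change differed between clones. At 4h Id1, Id3 and Bmp4 lie below the line, and for rev against 4h Id3 lies above it while Bmpr2 and Id4 lie below it.

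Averaged over the 4 groups, 7 of the 10 genes differed in level between the clones, beside 34.9% of all genes, so clone differences were common in the table as a whole. Id1, Id2 and Bmp4 were lower in clone 8, by log2 differences of -1.59, -0.66 and -0.83, and Id4, Bmpr2, Smad1 and Smad5 were higher, by 0.64, 0.47, 0.70 and 0.22 (edgeR adjusted p from 6.07e-05 for Smad1 to 0.0475 for Smad5). The Smad5 call was lost in 11 of the 16 fits that left out 1 library and under DESeq2, and that of Bmp4 without replicate 1 or replicate 2 of clone 8 at 4h. Tested within each group, a choice made after the values had been seen, 1 gene was called at 0h (Bmpr2, 1.03 higher in clone 8), beside 11.7% of all genes. At 2h 2 were called, beside 30.4%, with Smad1 0.80 and Id4 0.67 higher in clone 8. At 4h 6 were called, beside 24.2%, with Id1, Bmp4 and Id2 (-1.08) lower and Id4 (1.43), Bmpr2 (0.99) and Smad1 (0.78) higher in clone 8. At rev 2 were called, beside 24.5%, with Id3 1.29 and Smad1 1.01 higher in clone 8. A call in one group and not in another does not show that the clone difference changed; the tests of that are those of the 3 comparisons given above.

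The genes whose pattern was most like each ID gene were found by Pearson correlation of log2 CPM over the 16 libraries after the mean of each clone was subtracted, among 7850 genes with enough counts (7849 for Id3). Closest to Id1 were Mkrn1 (r = 0.958), Hs3st3b1 (0.952), Il17rd (0.950), Etv4 (0.943) and Ptpn12 (0.942). Closest to Id3 were Egr1 (0.992), Spry4 (0.954), Epha2 (0.944), Rbpj (0.941) and Tiparp (0.939). Egr1, an immediate early gene, was like Id3 in being higher at 2h than at 4h, with log2 changes from 0h of 7.30 and 5.65. Etv4, an ETS factor, was like Id1 in being higher at 4h, with 1.40 and 3.31. Of the others closest to Id3, Tiparp changed by -0.37 from 2h to 4h, and Spry4, Epha2 and Rbpj by 0.18, -0.03 and 0.03. Closest to Id4 were Ccdc127 (0.906), Pikfyve (0.882), Arfgef1 (0.876), Papolg (0.855) and Mpp5 (0.847), and closest to Id2 were Sltm (0.881), Dhx38 (0.874), Piezo1 (0.850), Cdipt (0.841) and Zc3h18 (0.835), whose own changes between groups were all under 0.5 on the log2 scale. Among the 10 genes the correlation was 0.978 for Id1 with Bmp4, 0.778 for Id1 with Id3 and 0.825 for Id4 with Bmpr2. The points share their libraries and the 4 groups, so these correlations describe the 16 libraries only.

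Of 59 further genes of BMP signalling and ID function, 34 passed the filter. The 25 others included the ligand Bmp2, with at most 8 counts in a library, the antagonists Nog (6), Chrd (19) and Grem1 (3), the receptor Bmpr1b (35) and the transducer Smad9 (7). At 2h 2 of the 34 rose and 2 fell, and at 4h 2 rose and 3 fell against 0h. From 2h to 4h 1 rose and 7 fell, but 2 to 4 fell without any 1 of 9 libraries, which were the 4 at 2h, both of clone 8 at 0h, both of clone 4 at 4h and replicate 1 of clone 8 at 4h. On reversal from 4h 5 rose and 0 fell, from 0h to rev 4 rose and 0 fell, and from 2h to rev 2 rose and 2 fell. At an unadjusted p under 0.05 edgeR had 3 lower from 4h to rev and 1 from 0h to rev, and DESeq2 gave 0 in both at its adjusted threshold. The shares of all genes called are those given above for the same comparisons. From 4h to rev 1 fell by library totals, and 1 without replicate 1 of clone 4 or either library of clone 8 at 4h. With no low-count filter 2 fell. From 0h to rev 1 fell without replicate 1 of clone 8 at rev, and 2 in clone 8 alone. From 4h to rev clone 4 alone gave 13 rises and 3 falls, and clone 8 alone 4 and 1. Those 2 fits called 3142 of 12759 and 824 of 12831 genes in all. The median log2 change of the 34 was 0.11 at 2h and -0.13 at 4h against 0h, beside 0.00 and -0.01 over all genes.

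Smad7, an inhibitory SMAD that blocks receptor signalling, had a mean of 33.2 ± 11.3 CPM (SD, n = 4) before 4OHT, 104.3 ± 12.4 CPM in group 2h and 64.7 ± 32.5 CPM in group 4h. It rose by 1.68 on the log2 scale at 2h (SE 0.244, adjusted p = 0.00015, edgeR) and 0.94 at 4h (adjusted p = 0.0165), and from 2h to rev it fell by 1.26 (adjusted p = 0.00716). At 4h Smad7 ran from 28.8 CPM in a clone 4 library to 99.5 CPM in a clone 8 library. Its rise at 2h differed between the clones by -0.67, clone 8 minus clone 4 (adjusted p = 0.0468, edgeR). That call was kept under 7 of 22 alternatives. The difference at 4h against 0h was not called, and that from 4h to rev is given in the closing section. The relative of Smad7 among the 10 genes, Smad6, was not called at any time. Acvr2a, a type II receptor for activins and BMPs, stood at 10.5 ± 1.27 CPM before 4OHT, 23.2 ± 1.18 CPM in group 2h and 13.6 ± 2.04 CPM in group 4h, and rose by 1.15 at 2h (SE 0.109, adjusted p = 1.59e-06). All of its libraries at 2h, 21.5 to 24.1 CPM, were above all at 0h, 8.79 to 11.8 CPM, and from 2h to 4h it fell by 0.77 (adjusted p = 0.000254).

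Rgma, a BMP co-receptor, fell by 1.28 on the log2 scale at 2h (SE 0.217, adjusted p = 0.000623, edgeR), from 8.58 ± 1.06 CPM to 3.49 ± 1.20 CPM (SD, n = 4), and by 1.07 at 4h, and rose by 1.15 from 4h to rev (adjusted p = 0.00269). That rise of Rgma differed between the clones, by -1.21 for clone 8 minus clone 4 (adjusted p = 0.0288, edgeR). The call of this difference was kept under 16 of 22 alternatives. Tob1, an antiproliferative protein that also restrains SMADs, fell by 0.53 at 2h and 0.94 at 4h (adjusted p = 0.00962 and 0.000171) and rose by 0.88 from 4h to rev (adjusted p = 0.000393). Acvr2b, another type II receptor, fell by 0.40 at 4h (adjusted p = 0.0464). From 2h to 4h Crim1 and Tgfbr3, a secreted-ligand binding protein and a co-receptor, fell by 0.98 and 0.79 (adjusted p = 0.016 and 0.0222), and Tcf3, an E protein that IDs bind, rose by 0.33 (adjusted p = 0.0141). The E proteins did not move together, since of the 3 tested 1 was called higher and 1 lower. The lower was Tcf4, outside the 3 largest falls, with means of 26.5 CPM at 2h and 20.5 CPM at 4h. At rev Gata2, a known BMP target, was 1.20 above 4h and 0.88 above 0h (adjusted p = 0.00253 and 0.0171), and Dusp9, a phosphatase that BMP is known to induce in embryonic stem cells, was 0.57 above 0h (adjusted p = 0.00349). Gata2 at rev ran from 3.03 CPM in a clone 8 library to 12.8 CPM in a clone 4 library. That range overlaps 2.70 to 5.76 CPM at 0h and 2.45 to 4.53 CPM at 4h. Whether its change from 0h to rev differs between the clones was not tested.

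Msx2, a homeobox gene and known BMP target, lay under the minimum of 50 counts for named genes and is given because it was called in 4 comparisons; it was chosen after its values were seen. It was at 0.503 to 1.23 CPM at 4h, from 3 to 8 counts a library, and at 3.58 to 5.15 CPM at rev, so that all libraries at rev were above all at 4h. The rise from 4h to rev was 2.34 on the log2 scale (SE 0.295, adjusted p = 5.1e-05, edgeR), in the opposite direction to Id1, Id3 and Bmp4. At rev it was also 1.56 above 0h (adjusted p = 0.00119).

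**Figure D4:**
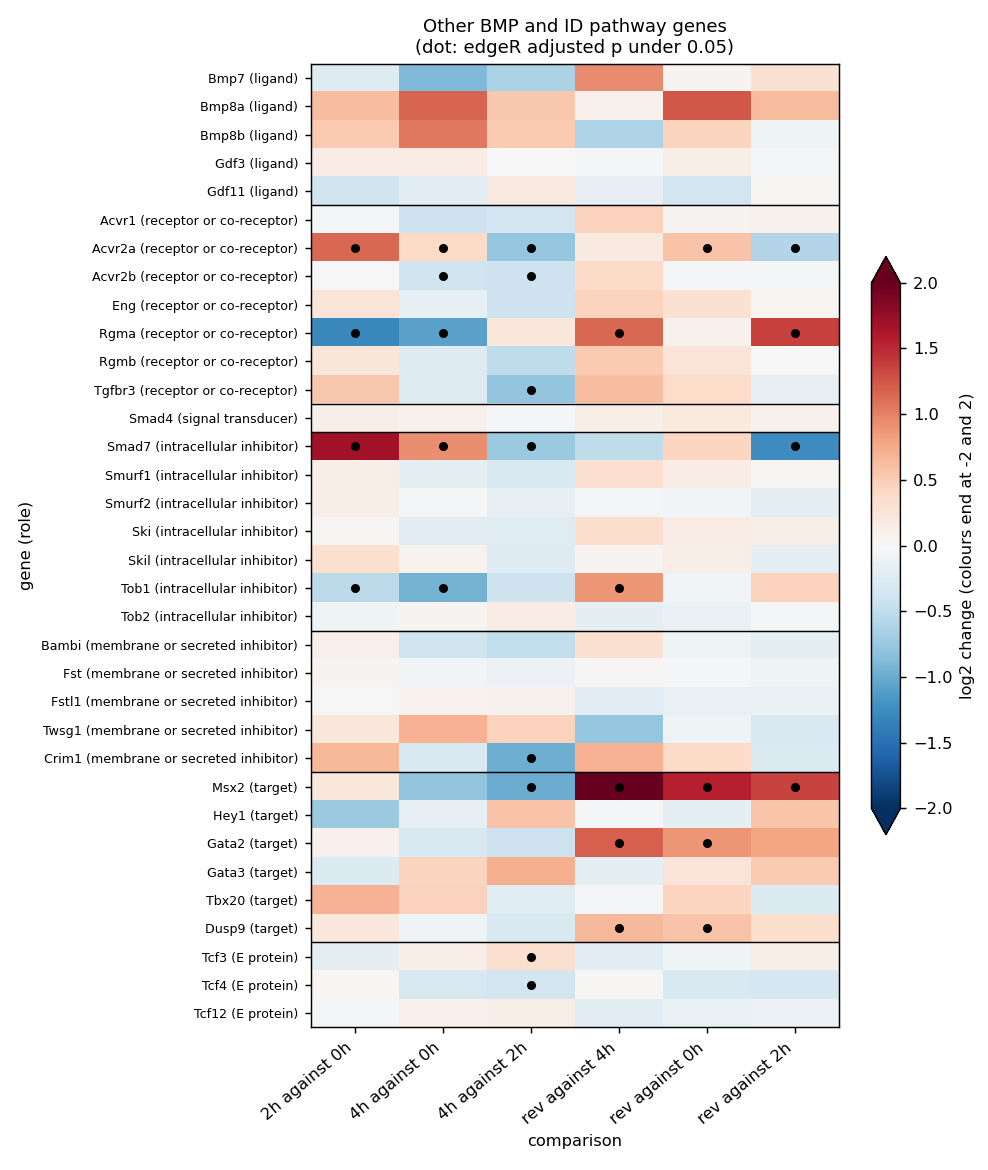
Log2 change (colour, ending at -2 and 2) of the 34 further genes, grouped by role, in the 6 comparisons, with a dot where the edgeR adjusted p was under 0.05. Most cells hold no dot, but 3 of the 6 targets have one for rev against 4h and for rev against 0h. For 4h against 2h, 3 of the 7 receptors and co-receptors and 2 of the 3 E proteins have one, the latter 1 higher and 1 lower. Smad7, Acvr2a and Rgma carry most of the dots for 2h and 4h against 0h, and Msx2, Gata2 and Dusp9 those for rev against 0h together with Acvr2a.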

How the data were processed

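RNA from 16 libraries was depleted of ribosomal RNA, from 1 µg each, per the labels' protocols. Counts were used as the authors deposited them, unnormalized whole numbers for 52636 gene IDs in a single table. The submitters' processing notes name bcl2fastq 2.19.1, STAR 2.5.3a and the build mm10, with no role given; the counting program, annotation and strand setting are not given in the sources used here. Symbols, coordinates and exon lengths came from GENCODE M21 by gene ID (52489 IDs matched, 147 did not), and promoter windows from RefSeq on GRCm38.p6.

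Groups and clones came from the sample titles. Counts were analysed in R 4.3.3 with edgeR 4.0.16: filterByExpr (minimum count 10, minimum total 15), TMM scaling, and glmQLFit and glmQLFTest on all 16 libraries with group and clone as terms. Differences between clones came from a model with 1 mean for each of the 8 pairs of clone and group. The p-values were adjusted by Benjamini and Hochberg's method over the 12742 genes tested, with 0.05 as the limit for a call. The script was tested on simulated data. Intervals on ratios of counts cover counting error only.

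The 10 genes, the list of 59 further genes and the markers were chosen with earlier results of these data known. All 10 genes were named; of the further genes, up to 3 called rises and 3 called falls of largest size in each comparison, provided that the higher group averaged 50 counts or more; and for each ID gene the 5 genes of highest correlation, again with at least 50 counts and no predicted-gene name. Same-numbered libraries of a clone did not deviate together across groups (mean correlation -0.0106 after clone and group means, range -0.133 to 0.119), so numbers were not used as pairs. No 2 libraries of the same clone and group agreed within sampling noise (their chi-square, divided by its degrees of freedom, was 4.49 to 74.3). The highest was that of clone 8 at rev. Other pairs of libraries were not compared in this way. The alternatives, described in the closing section, were DESeq2 1.42.0, other scalings and filters, each clone alone, no clone term, a replicate block, stricter call rules and each library left out in turn. The clone differences within a group and the ratio of Id1 to Id3 were added after the values had been seen.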

Additional observations from a re-analysis of the deposited data

Results flagged for a closer look

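In 40 groups of 4 libraries tested for a single value far from the other 3, 2 had one, and chance gives about 1 in 20. Id2 at 2h stood at 3.04 CPM in replicate 2 of clone 4, with the other libraries at 1.82 to 1.98 CPM. Smad1 at 0h stood at 12.4 CPM in replicate 2 of clone 4, with the others at 16.9 to 17.4 CPM.

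The change of 4 genes differed between the clones by edgeR's test of that difference, given as clone 8 minus clone 4 on the log2 scale. For Bmpr2 it was -0.916 at 2h and -1.098 from 4h to rev. For Bmp4 it was -1.807 at 4h against 0h. From 4h to rev it was 1.765 for Id3 and -1.718 for Id4. The causes of these differences were not tested.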

How the results depend on the processing

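Of 21 pairs of a gene and a comparison between groups that were called, 10 were called under every alternative that could be fitted and 13 without each library in turn; no called change reversed under any alternative. The pairs called throughout include Id3 and Bmp4 at 2h and Id1, Id3 and Bmp4 at 4h and from 4h to rev. The number of the 10 genes called at 2h against 0h was 5, and became 3 at an adjusted p under 0.01, 3 with an absolute log2 change of at least 1, 2 with no clone term, and 3 to 5 without each library. From 2h to 4h it was 5, and became 2 under either stricter rule, 2 with no clone term, 2 in clone 8 alone and 3 to 5 without each library; the 3 came without replicate 2 of clone 4 at 2h or either library of clone 4 at 4h. Between 0h and rev it was 1, and became 0 at an adjusted p under 0.01, 0 by library totals, 0 with a minimum count of 30 (Id2 was not tested there), 0 with no clone term, 2 in clone 8 alone and 0 to 1 without each library. Between 2h and rev it was 3, and became 1 at an adjusted p under 0.01, 1 with no clone term and 1 to 3 without each library. The clone level was called for 7, and for 3 at an adjusted p under 0.01 and 4 by library totals. The difference between clones was called for 1 at 2h and 0 by library totals. At 4h it was called for 1 and for 0 at an adjusted p under 0.01, 0 by library totals, 0 with the replicate block, 0 with DESeq2, and 0 to 1 without each library, with 0 without any 1 of the 4 libraries at 0h, replicate 1 of clone 8 at 2h, replicate 1 of clone 4 or either of clone 8 at 4h, or either of clone 4 at rev. For rev against 4h it was called for 3, and for 1 to 3 without each library. Where no value moves with it, the cause was not tested.

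With the replicate block, which takes clone and number as 4 blocks, 4 genes were called at 2h against 0h and 4 from 2h to 4h; Bmpr2 lost the first (adjusted p = 0.0729, edgeR) and Id4 the second (adjusted p = 0.0585). Scaling by library totals moved the median log2 change of all genes by 0.107, -0.042, -0.142, -0.199, -0.236 and -0.348 for 2h and then 4h compared with 0h, 4h compared with 2h, and rev compared in turn with 4h, 0h and 2h. In that order it called 446, 508, 385, 530, 449 and 157 genes in place of 2162, 1645, 1547, 1224, 1332 and 227, of which 78%, 64.6%, 38.4%, 15.8%, 23.6% and 8.28% were higher in place of 55.9%, 56.9%, 47.6%, 46.9%, 52.7% and 43.2%. Under it Id2 was 0.85 higher at rev than at 0h (adjusted p = 0.198) and Smad1 0.31 higher at rev than at 4h (adjusted p = 0.604). Depth limits Id1 and Bmp4 most, since at 0h and rev they had 1 to 12 counts a library.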

Other observations

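Several of the further BMP genes differed between the clones in how they changed, by edgeR's test of clone 8 minus clone 4 on the log2 scale. Twsg1, a secreted BMP modulator, differed by -1.92 at 4h against 0h (SE 0.237, adjusted p = 9.45e-07) and by 1.57 from 4h to rev (adjusted p = 1.80e-05), the same signs as Bmp4 at 4h and Id3 from 4h to rev. Smad7 differed by -1.82 from 4h to rev (SE 0.218, adjusted p = 5.88e-07) and Skil, a SMAD co-repressor, by -1.46 at 2h (SE 0.177, adjusted p = 1.74e-06) and -1.06 at 4h (adjusted p = 0.00021). These genes were chosen after their values were seen, from 2 called at 2h, 3 at 4h and 8 from 4h to rev among the 34 tested, beside 7.94%, 5.72% and 13.2% of all genes. The calls of Twsg1 at 4h and Smad7 from 4h to rev held under all 22 alternatives, and those of Twsg1 from 4h to rev (0.90, adjusted p = 0.0854) and Skil at 2h (-0.88, adjusted p = 0.127) and 4h (-0.76, adjusted p = 0.454) were lost by scaling to library totals alone. The counts were less stable. The 8 became 3 without replicate 1 of clone 4 at 4h, 4 without replicate 2 of either clone at rev, 5 without either library of clone 8 at 4h or replicate 1 of clone 4 at rev, 4 with DESeq2 and 2 at an adjusted p under 0.01. The 3 at 4h became 7 without replicate 2 of clone 4 at 4h and 1 by library totals. The 2 at 2h became 4 without replicate 1 of clone 4 at 0h, 1 without any 1 of 7 libraries (both of clone 8 at 0h, replicate 2 of clone 8 at 2h, replicate 1 of clone 8 at 4h, and both of clone 4 and replicate 1 of clone 8 at rev), 1 with DESeq2, with its size factors in edgeR, with a minimum count of 30, with the replicate block or at an adjusted p under 0.01, and 0 by library totals. Dusp6, a readout of ERK, differed by -2.60 at 4h (SE 0.349, adjusted p = 4.86e-06).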
